A study of Caenorhabditis elegans with 6 samples.

Results

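The 10 genes described here belong to the pathway by which the germ line of Caenorhabditis elegans chooses between sperm and oocytes: fog-1, fog-2, fog-3, fem-1, fem-3, tra-1, tra-2, fbf-1, fbf-2 and nos-3. They were chosen by name, as genes of sex determination, although earlier results of these data were known at that time. The array carried 14 probes for them, of 20401 gene probes in all, with 2 probes each for fem-1, tra-1, tra-2 and nos-3 and 1 probe for each of the other 6 genes. All 14 probes were tested, among 16272 tested probes.

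Worms mutant for the microRNA gene mir-243, with the allele n4759, were compared with the wild-type Bristol strain N2. Both were young adults grown at 20 °C, and RNA of whole animals was used. In each replicate, labelled mutant and wild-type cDNA shared Agilent whole-genome arrays, with the dyes exchanged on the other array of the pair, so that 3 biological replicates gave 6 arrays. The question was which transcripts, by direct or indirect routes, depend on miR-243. The labels do not say how the mutant strain was outcrossed.

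A C. elegans hermaphrodite makes sperm as a larva and then switches for good to oocytes. The switch uses the same cascade that sets somatic sex: the receptor TRA-2 holds back the FEM proteins, the FEM proteins bring about the breakdown of the transcription factor TRA-1, and FOG-1 and FOG-3 act at the end of the cascade to specify sperm. In the germ line, FOG-2 represses the tra-2 mRNA and allows sperm to form, while the RNA-binding proteins FBF-1 and FBF-2, with NOS-3, repress the fem-3 mRNA and allow the change to oocytes. Much of this control acts on translation or protein stability, which arrays of mRNA do not measure.

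Replicate log2 ratios correlated with Pearson's r of 0.987 to 0.990 across tested probes, although probes are not independent replicates. The median SD of a log2 ratio between the 3 replicates was 0.0682. The share of spots well above background in a channel was 74.8% to 83.0%, and the number of arrays limits the precision. Each intensity below is the normalised value of 1 replicate, the geometric mean of its 2 arrays, on a scale that includes an offset of 50 intensity units. The offset draws the ratios of dim probes towards 0. The intensity of 1 probe is not comparable with that of another, so only the genotypes are set against each other, for a probe or for the sum of a marker list, in which bright probes weigh most. A probe was called changed when its adjusted p was under 0.05 (limma, Benjamini-Hochberg over all tested probes) and the difference was at least 2-fold.

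Most of the pathway genes had lower mRNA levels in mir-243 worms. Of the 14 probes, 11 were lower and 2 were higher in the mutant at an adjusted p under 0.05, against a background of 41.3% of all tested probes lower and 42.3% higher (83.5% in either direction). The median log2 ratio of the 14 probes was -0.51 (SD of the replicate medians 0.0713, n = 3), and that of all tested probes was -0.0081. With the 2-fold threshold, 3 probes of 3 genes were called, all lower in the mutant: those of fem-3 and fog-2 and 1 of the 2 probes of tra-2. The background for calls was 16.3% of tested probes in either direction, 7.09% lower and 9.17% higher. The intensities of the 3 mutant and the 3 wild-type samples did not overlap for 11 of the 14 probes, with the mutant below, against 33.9% of all tested probes (37% had the mutant above, and 70.9% did not overlap in either direction). The other 3, both probes of tra-1 and that of fog-3, overlapped. All 14 probes were well above background on 6 of 6 arrays in both genotypes, and none was saturated.

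**Figure D1:**
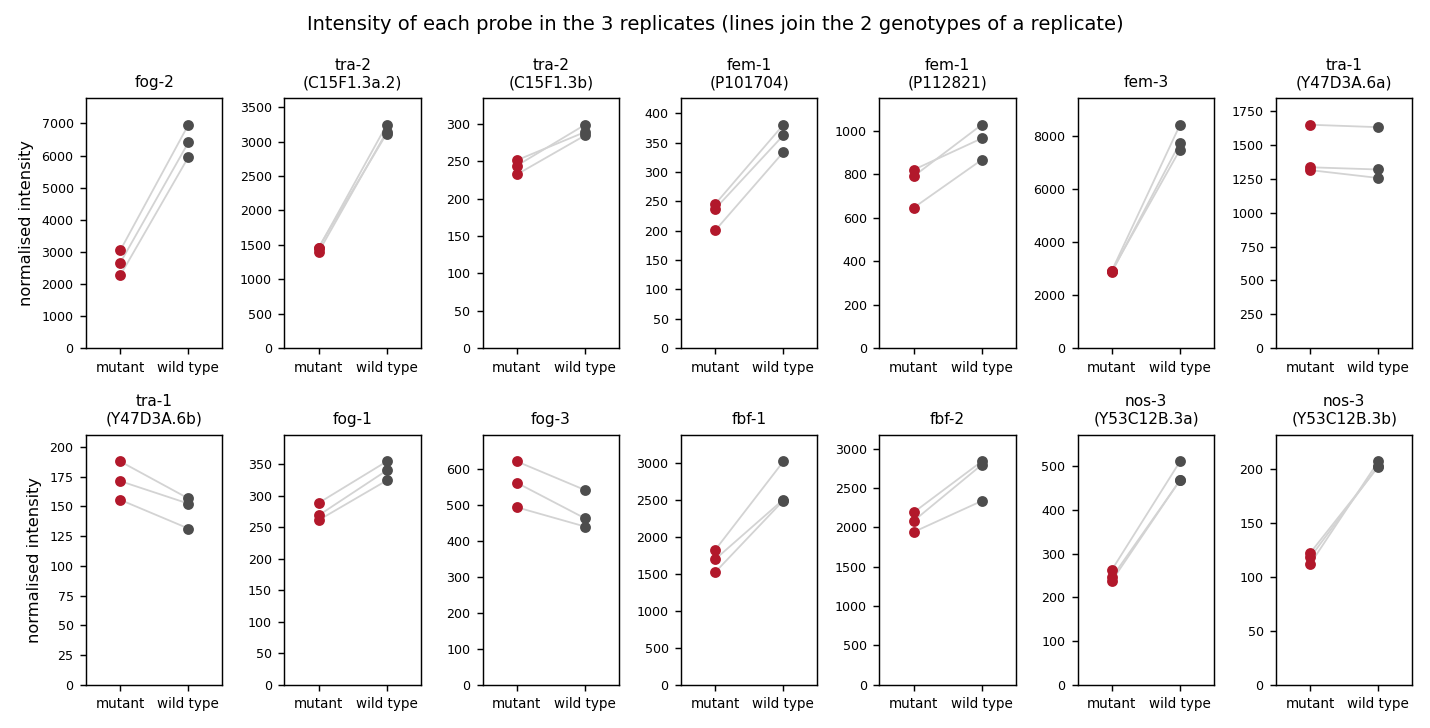
Normalised intensity (linear axis from 0, scale of signal plus 50) of each of the 14 probes in the 3 mir-243 mutant samples (red) and the 3 wild-type samples (grey), with lines joining the genotypes of a replicate. Mutant points lie below all wild-type points in 11 panels, and the groups overlap for both tra-1 probes and fog-3.

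The repression of tra-2 mRNA comes first in the germline switch. fog-2 encodes an F-box protein that binds GLD-1 on the tra-2 mRNA, and it is needed for sperm in hermaphrodites but not in males. Its normalised intensity was 2655, 3042 and 2264 in mutant replicates 1, 2 and 3, against 6406, 6959 and 5950.3 in wild type. Every mutant sample lay below every wild-type sample by a wide margin. The log2 ratio was -1.29 ± 0.101 (SD, n = 3), a level 2.44-fold lower in the mutant, with a limma adjusted p of 2.23e-11. Only 3.05% of tested probes had a ratio as low. The exact two-sided sign-flip permutation test gave p = 0.25, which is the smallest p that 3 replicates allow and which each of the 14 probes gave. fog-2 has a close relative, ftr-1, whose probe had a ratio of -0.96 ± 0.0522 on the log2 scale (SD, n = 3; limma adjusted p 1.45e-10) and was not called. Whether either probe also takes up the other's transcript was not tested.

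tra-2 encodes the membrane receptor that promotes female development, and its 2 probes, which the array assigns to different transcripts, gave different ratios. Whether the probes tell these transcripts apart was not tested. The probe for transcript C15F1.3a.2 had intensities of 1449.5, 1396 and 1461 in the mutant, against 3245, 3145 and 3117 in wild type. The probe for C15F1.3b had 251, 244 and 232 in the mutant, against 289, 299 and 284 in wild type. Neither probe overlapped between genotypes, but the gap was far wider for the first. The log2 ratio of C15F1.3a.2 was -1.14 ± 0.0432 (SD, n = 3; limma adjusted p 2.44e-11), or 2.21-fold lower. That of C15F1.3b was -0.26 ± 0.0522 (SD, n = 3; adjusted p 8.44e-05), and this probe was not called. The difference between the ratios of the 2 probes was -0.88 ± 0.0801 (SD, n = 3), with values of -0.96, -0.88 and -0.80 in replicates 1, 2 and 3. It kept its sign under 15 alternative ways of processing, from -1.33 to -0.80, and was -0.86 with an offset of 10 in place of 50. With median centring of the arrays in place of loess, the ratio of C15F1.3b was -0.092 and no longer passed the test (adjusted p 0.170).

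The FEM proteins act between TRA-2 and TRA-1. fem-3 encodes a protein of the complex that directs TRA-1 to breakdown, and its mRNA is the one that the FBF proteins hold silent when oocytes begin. The fem-3 intensity was 2910.5, 2918 and 2871 in the mutant, against 7479, 8415 and 7736 in wild type. The mutant samples were closely alike and all lay far below wild type. At -1.44 ± 0.0836 on the log2 scale (SD, n = 3; limma adjusted p 4.95e-12), or 2.71-fold lower, fem-3 had the lowest ratio of the 14 probes, and 2.14% of all tested probes were as low. On the single arrays the ratio ranged from -1.68 to -1.31.

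fem-1 encodes an ankyrin-repeat protein that recognises TRA-1 for a CUL-2 ubiquitin ligase. Both of its probes are assigned to transcript F35D6.1a. Probe A_12_P101704 had intensities of 237, 245 and 200.4 in the mutant, against 362, 380.4 and 334 in wild type. Probe A_12_P112821 had 821, 646 and 790.4 in the mutant, against 965, 866 and 1028 in wild type. Both were lower in every mutant sample than in every wild-type sample. Their log2 ratios were -0.66 ± 0.0666 and -0.35 ± 0.0995 (SD, n = 3; limma adjusted p 9.05e-09 and 1.47e-05), and neither reached 2-fold. The first was lower than the second in 3 of 3 replicates, by -0.31 ± 0.0920. Under the alternatives this difference ran from -0.54 with the deposited ratios to -0.15 with median centring.

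tra-1 encodes the Gli-family zinc finger protein at the end of the cascade. Neither of its probes had a negative mean ratio here, unlike those of fog-2, tra-2, fem-1 and fem-3. The probe for Y47D3A.6a had intensities of 1314, 1649.5 and 1335 in the mutant, against 1256, 1632 and 1319 in wild type. The genotypes overlapped almost entirely. Its log2 ratio was 0.03 ± 0.0279 (SD, n = 3; limma adjusted p 0.478), with a 95% confidence interval of -0.06 to 0.12, and it was positive on 4 of 6 arrays. It did not pass the test, and its sign depended on the scaling: the ratio was -0.14 where arrays were centred on their median without loess and -0.13 with the deposited ratios, both lower in the mutant at an adjusted p under 0.05 (0.0455 and 0.0264), and -0.071 with the scanner's processed signals (0.181). The probe for Y47D3A.6b had 188, 155 and 171 in the mutant, against 157, 131 and 152 in wild type. Here each mutant sample was above the wild type of its own replicate, although the groups overlapped. The log2 ratio was 0.22 ± 0.0490 (SD, n = 3; limma adjusted p 0.000310), or 1.17-fold higher in the mutant. Under 15 alternatives it ranged from 0.15 to 0.38.

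fog-1 and fog-3 act last and are both needed for sperm. fog-1 encodes a CPEB-type RNA-binding protein and had intensities of 288, 261 and 269 in the mutant, against 354, 324 and 340.0 in wild type. The mutant samples were lower without overlap, but by little: the log2 ratio was -0.32 ± 0.0217 (SD, n = 3; limma adjusted p 1.05e-05), or 1.25-fold lower. It was -0.19 with the mutant in Cy5 only and -0.14 with median centring (adjusted p 0.0377). fog-3 encodes a protein of the Tob family and had intensities of 561, 620.1 and 493 in the mutant, against 462, 541 and 439 in wild type. The mutant was higher in each replicate, while the groups overlapped because replicates differed more than genotypes did. Its log2 ratio was 0.21 ± 0.0585 (SD, n = 3; limma adjusted p 0.000513), or 1.16-fold higher, and it was 0.34 with median centring. The ratios of fog-1 and fog-3 thus had opposite signs on 6 of 6 arrays each, and neither approached 2-fold.

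FBF-1 and FBF-2 are closely related PUF-family proteins that keep germline stem cells dividing and repress fem-3, and their genes lie near each other with 1 protein-coding gene between them. The fbf-1 intensity was 1695, 1822 and 1521 in the mutant, against 2502, 3016 and 2489 in wild type. The fbf-2 intensity was 1939.9, 2189 and 2081 in the mutant, against 2335, 2837 and 2794 in wild type. Neither gene overlapped between genotypes. The log2 ratio of fbf-1 was -0.67 ± 0.0912 (SD, n = 3; limma adjusted p 1.37e-08), or 1.59-fold lower. That of fbf-2 was -0.36 ± 0.0806 (SD, n = 3; limma adjusted p 7.48e-06), or 1.28-fold lower. fbf-1 was thus lower than fbf-2 by -0.31 ± 0.0370 on the log2 scale, in 3 of 3 replicates. That difference rested on 1 dye orientation. With the mutant in Cy5 the ratios were -0.85 for fbf-1 and -0.23 for fbf-2, a difference of -0.62, and with the mutant in Cy3 they were -0.49 and -0.48, a difference of -0.0024. Both genes were lower in the mutant in either orientation, and fbf-2 was at -0.64 with median centring. Cross-hybridisation between these related genes was not tested.

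nos-3 encodes a Nanos-family protein that binds FBF and is needed, together with other genes, for the change to oocytes. The probe for Y53C12B.3a had intensities of 263, 238 and 245 in the mutant, against 510.4, 468 and 467 in wild type. The probe for Y53C12B.3b had 118, 122 and 112 in the mutant, against 203, 203 and 207 in wild type. Both separated the genotypes clearly, and the first fell just short of the 2-fold line, at 1.94-fold lower. The log2 ratios were -0.96 ± 0.0238 and -0.80 ± 0.0811 (SD, n = 3; limma adjusted p 1.15e-10 and 1.65e-09). Both probes were dim, and whether they were called depended on the processing. Both were called lower with an offset of 10 (-1.09 for each), with the scanner's processed signals (-1.23 and -1.50) and with the deposited ratios (-1.32 and -1.56). Y53C12B.3a was also called on the arrays with the mutant in Cy5 alone (-1.12).

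**Figure D2:**
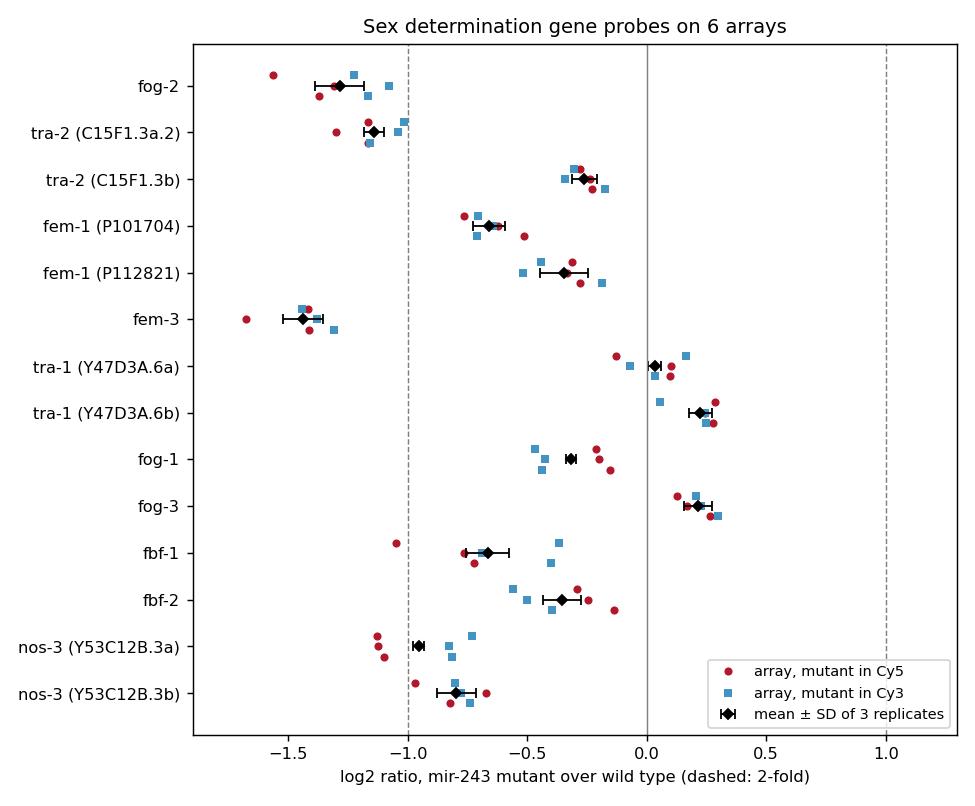
Log2 ratio of mir-243 mutant over wild type for each probe on the 6 arrays (circles, mutant in Cy5; squares, mutant in Cy3) and the mean ± SD of the 3 replicates (diamonds). Of the 14 probes, 13 have 1 sign on all arrays, and the exception is the Y47D3A.6a probe of tra-1. The dye orientations do not overlap for fog-1, fog-2, fbf-1, fbf-2, tra-2 (C15F1.3a.2) and nos-3 (Y53C12B.3a).

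Grouped by the germ cell fate that each product promotes, both groups of genes had negative median ratios. The genes that favour sperm (fog-1, fog-2, fog-3, fem-1 and fem-3) had 6 probes with a median log2 ratio of -0.50, of which 5 were lower and 1 was higher at an adjusted p under 0.05, and 2 were called lower. The genes that favour oocytes in the germ line (tra-2, fbf-1, fbf-2 and nos-3) had 6 probes with a median of -0.73, all 6 lower and 1 called lower. fog-2 and its target tra-2 were both lower in the mutant, and so were fem-3 and its repressors fbf-1, fbf-2 and nos-3. Among all tested probes, 41.3% were lower and 42.3% higher at an adjusted p under 0.05. The shares called were 7.09% lower and 9.17% higher. The 2 probes of tra-1 are in neither group. The group difference itself was not tested.

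**Figure D3:**
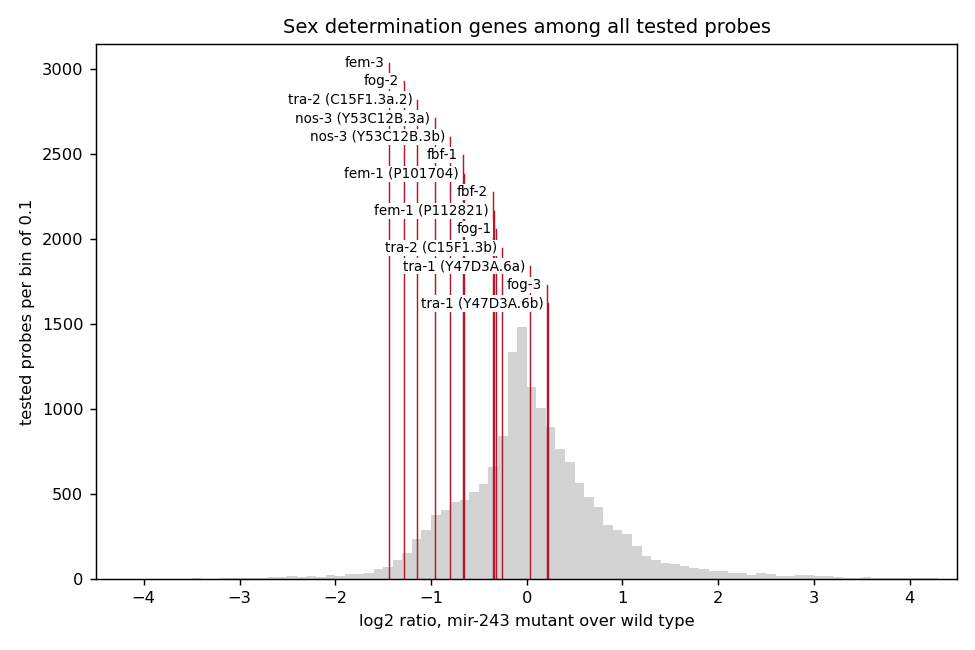
Distribution of the log2 ratio, mir-243 mutant over wild type, over all 16272 tested probes (grey, bins of 0.1), with a red line at each of the 14 probes of the sex determination genes. fem-3, fog-2 and tra-2 (C15F1.3a.2) lie in the lower tail, where 2.14%, 3.05% and 4.66% of tested probes are as low, while tra-1 and fog-3 lie near the middle.

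The rest of the pathway was described from lists of 52 further genes, of which 44 were tested with 51 probes. Of these probes, 38 were lower and 8 higher in the mutant at an adjusted p under 0.05, and 10 were called lower and 1 higher. The median log2 ratio was -0.35. Over all tested probes, 41.3% were lower and 42.3% higher at that adjusted p, and 7.09% were called lower and 9.17% higher, and the counts in each list that follows stand against the same shares.

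At the top of the cascade, where the ratio of X chromosomes to autosomes is read, 5 of 7 tested probes were lower and 1 was higher, and 2 were called lower. These were sea-1, a T-box gene that counts on the autosomal side, with a log2 ratio of -1.64 ± 0.121, and sdc-1, which represses her-1, with -1.37 ± 0.142 (SD, n = 3 each). sdc-3, which acts with sdc-1, had 0.32 ± 0.0524. The probe for her-1, which encodes the male-specific ligand of TRA-2, was well above background on 1 of 6 arrays in the mutant and 1 of 6 in wild type, and it was not tested. xol-1 had no probe here.

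Among the partners of the core cascade, 7 of 10 tested probes were lower and 3 were higher. fem-2, which encodes the phosphatase of the FEM group, had a log2 ratio of -0.79 ± 0.0525, and cul-2, which encodes the cullin of their ubiquitin ligase, had -0.61 and -0.84 on 2 probes. tra-4, a transcriptional repressor of male genes, had -0.86 ± 0.0102. None of these reached 2-fold. The 3 higher probes all belonged to sup-26, an RNA-binding repressor of tra-2, with log2 ratios of 0.33, 0.58 and 1.02, the last of which was called higher. That call was narrow: no probe of these partners was called higher without replicate 2, with the mutant in Cy5 only, with normexp fitted on all spots, without background correction, with the deposited ratios or with median centring.

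The germline regulators of the switch moved in 1 direction where they passed the test: 24 of 25 tested probes were lower at an adjusted p under 0.05, none was higher, and 8 were called lower. The called genes were oma-2 (-1.83), gld-3 (-1.83 for T07F8.3b.1, with -0.88 for its other probe), oma-1 (-1.81), lin-41 (-1.72), nos-1 (-1.56), puf-8 (-1.42), rnp-8 (-1.12) and daz-1 (-1.02). The call of daz-1 ended without replicate 1, since replicates 2 and 3 had -0.997 each, and 7 probes were then called. gld-3 encodes an RNA-binding protein that opposes FBF and favours sperm, puf-8 works with fbf-1 in the change to oocytes, and oma-1, oma-2 and lin-41 act in oocytes themselves. The mog genes, which encode or act with splicing proteins and are needed to stop sperm production, lay between -0.52 for mog-2 and 0.04 for mog-7. Only mog-7 among the 25 probes did not pass the test (adjusted p 0.433).

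The known partners and mRNA targets of FBF gave 16 tested probes, 5 of them for fbf-1, fbf-2, nos-3 and fem-3 and 1 for fog-1. All 16 were lower in the mutant at an adjusted p under 0.05, with a median log2 ratio of -0.72, and 3 were called: fem-3, syp-2 (-1.35) and syp-3 (-1.33), which encode proteins of the synaptonemal complex. The calls numbered 8 with the deposited ratios, and 5 with an offset of 10, the processed signals, median centring or the mutant in Cy5 only. lst-1 and sygl-1, the stem cell partners of FBF, had -0.77 and -0.66. The probes of syp-2, syp-3, him-3, htp-1 and gld-1 are also among the germ line markers described below, whose median log2 ratio was -0.92. The 2 lists are therefore not separate evidence.

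Because RNA came from whole worms, fewer germ cells of a kind and less of an mRNA in each cell cannot be told apart. Markers of germ cells and of other tissues moved too. Of 20 tested probes for germ line genes (fog-1 left out), 20 were lower in the mutant and 9 were called lower, with a median log2 ratio of -0.92 (SD of the replicate medians 0.0202, n = 3). Their summed intensity was 59632 to 61664 in the mutant, against 101400.0 to 102410.0 in wild type. Of 19 tested oocyte probes, 18 were lower and 1 higher at an adjusted p under 0.05, and 16 were called lower. Their median was -1.81, with sums of 112765 to 113652 in the mutant, against 446570.0 to 480525 in wild type. The higher probe was that of cbp-3 (0.25), and the 2 probes of mbk-2 had -0.17 and -0.24. None of the germ line and oocyte genes with a probe was at background throughout.

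Sperm genes behaved otherwise. Of 19 tested sperm probes, 11 were higher and 3 lower at an adjusted p under 0.05, with a median log2 ratio of 0.22. Only spe-41, which encodes a sperm calcium channel, was called higher (1.03), followed by spe-4 (0.99). The 3 lower ones were spe-39 (-0.69), spe-44 (-0.44) and cpb-1 (-0.40). Summed intensities were 50348 to 55905 in the mutant, against 41111 to 44536 in wild type. The call for spe-41 was lost without replicate 3, and without replicate 1 the list had 2 calls.

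Of 20 tested neuronal probes, 19 were higher and 1 lower at an adjusted p under 0.05, and 10 were called higher (4 with median centring). The lower one was that of unc-119, which is expressed throughout the nervous system, at -0.29. The median was 1.01, with sums of 107318 to 111056 in the mutant, against 51732 to 52756 in wild type, and 1 probe of unc-18 was never above background. Of 7 tested body wall muscle probes, none was called at 2-fold with limma, although 4 had an adjusted p under 0.05, and the median was 0.11, or 0.0027 without replicate 1 and 0.23 without replicate 3. The part that the makeup of the worms has in the ratios of the sex determination genes was not tested.

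**Figure D4:**
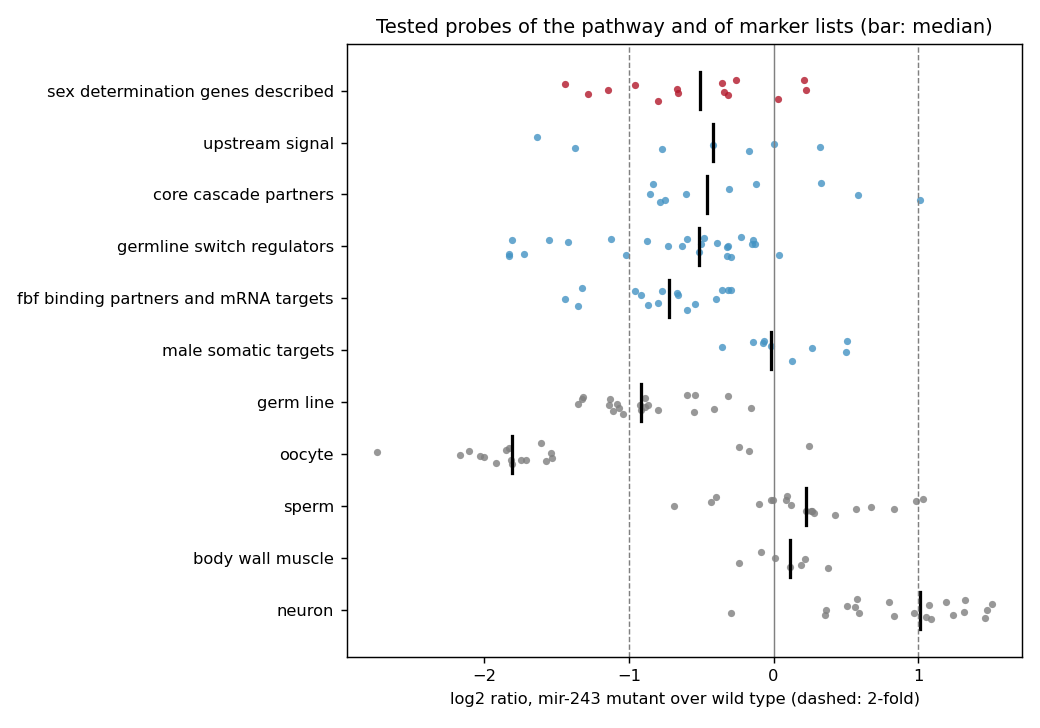
Log2 ratio, mir-243 mutant over wild type, of every tested probe of the 14 described (red), of the other pathway lists (blue) and of marker lists (grey), with a bar at each median. Medians are -0.51 for the described genes, -0.92 for germ line (-0.92 also without fog-1), -1.81 for oocyte, 0.22 for sperm and 1.01 for neuron genes. Some genes stand in more than 1 list, such as oma-1, oma-2, gld-1, syp-2, syp-3, him-3, htp-1 and cpb-1.

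Set against the median of the 20 germ line probes in the same replicates, the members fell on both sides. fem-3 was lower than that median by -0.51 ± 0.0677 on the log2 scale (SD, n = 3), fog-2 by -0.35 ± 0.101 and tra-2 (C15F1.3a.2) by -0.21 ± 0.0539. The nos-3 probes differed from it by -0.02 ± 0.0323 and 0.14 ± 0.0811. The ratios of the other 9 probes were above the germ line median. fbf-1 lay above it by 0.27 ± 0.0710, fbf-2 by 0.58 ± 0.0622 and fog-1 by 0.62 ± 0.0154, and the tra-1 probes and fog-3 lay above it by 0.97 to 1.16. These differences describe positions on the same arrays and were not tested.

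Replicates 1 and 2 were hybridised on 1 slide and replicate 3 on another, each slide holding both genotypes. Within slides, each of the 14 probes kept its sign. fem-3 had a log2 ratio of -1.44 on slide 1 and -1.43 on slide 2, fog-2 had -1.23 and -1.39, and tra-2 (C15F1.3a.2) had -1.17 and -1.09. All 3 calls held under the 15 alternatives in which the 2-fold threshold was kept, with fem-3 between -1.75 and -1.38, fog-2 between -1.60 and -1.16 and tra-2 (C15F1.3a.2) between -1.42 and -1.07.

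**Figure D5:**
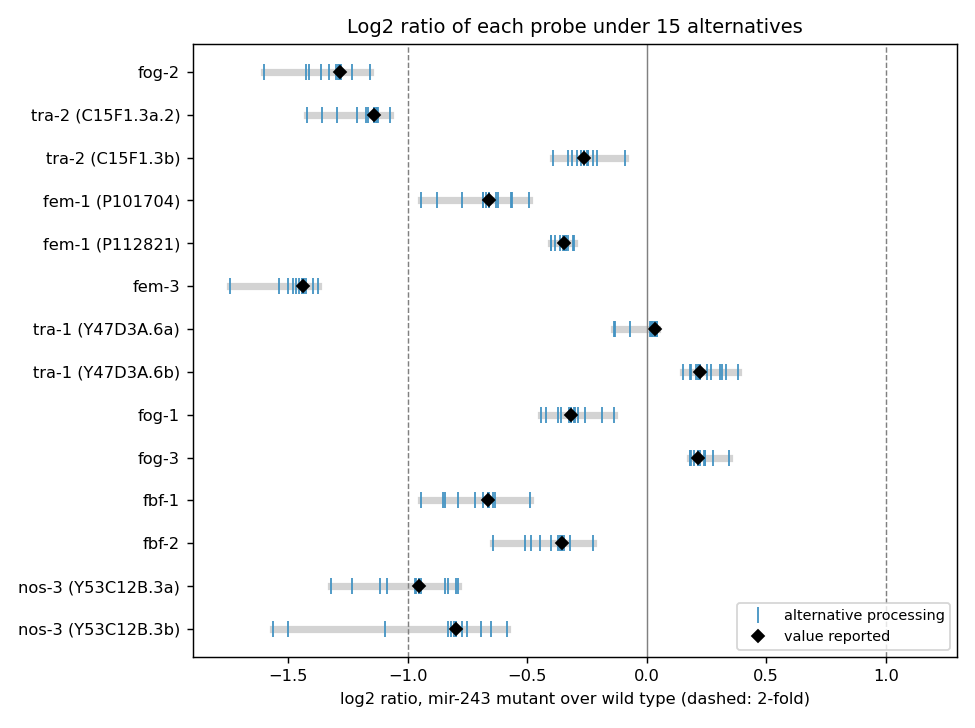
Log2 ratio, mir-243 mutant over wild type, of each of the 14 probes as reported (diamonds) and under 15 alternative ways of processing (ticks, with grey bars from the lowest to the highest). fem-3, fog-2 and tra-2 (C15F1.3a.2) stay below the 2-fold line at -1, the nos-3 probes cross it, and only the Y47D3A.6a probe of tra-1 changes sign.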

How the data were processed

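Whole-worm RNA of mir-243(n4759) mutants and N2 was measured on 6 two-colour arrays, labels giving 500 ng of RNA per sample. The authors scanned them with Agilent Feature Extraction (10.5.1.1 per the file headers, 8.5.1.1 per the submitters' processing notes). The deposited intensity values were spot and local background medians, not normalised. Deposited processed intensities, log10 ratios of the scanner and the authors' log2 ratios served as alternatives. The deposited log2 ratios lay within 0.001 of the scanner's ratios for 88.0% to 90.8% of probes and were not turned on dye-swapped arrays. Other deposited columns used, per the file headers, were quality marks, probe names and control types.

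In limma 3.58.1 (R 4.3.3, data.table, version 1.17.8), the background was corrected by normexp (offset 50, fitted in each channel without spots outlier-marked there). Ratios were normalised by loess. Gene spots outlier-marked in either channel, 3.25% to 5.87% of gene spots on an array, were then set to missing. Spots were averaged per probe, and ratios were turned to mutant over wild type and averaged over dye orientations (n = 3). A probe was tested if well above background (at least 50% of its spots) on at least 4 of 6 arrays in 1 genotype and measured in 3 replicates. Log2 ratios were tested against 0 with lmFit and eBayes. Intensities came from loess and Aquantile normalisation. The test was checked on simulated data.

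Both arrays numbered alike shared 1 pair of RNA samples, which pairs them by design. The correlations of their deviations were 0.0995, 0.132 and 0.0474 for replicates 1, 2 and 3. Names came from the files and RefSeq (WBcel235), which matched 19057 of 20401 gene probes. The names mog-6 and trp-3 were not matched. The probes' genome build is not given in the sources used here, so positions are not given. Every probe of the 10 genes is named. Of other lists, called genes and the 3 highest and 3 lowest may be named, and a few others were named after their values were seen for their place in the pathway. The members and lists were chosen with earlier results of these data known, and the role groups and probe differences were added after the values were seen.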

Additional observations from a re-analysis of the deposited data

Results flagged for a closer look

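Over the 6 arrays, 3 of 26 measures (14 probes and 12 list medians) had 1 array far from the other 5, with a gap, as a share of the whole range, above Dixon's 95% critical value. Chance alone flags about 1 in 20 groups of independent, normally distributed values. The arrays here are dye-swapped pairs and some measures share probes, so that rate need not hold. For fem-3 the gap was 0.633 of the range: replicate 2 with the mutant in Cy5 had a log2 ratio of -1.68, against -1.44 to -1.31 on the other arrays, and fem-3 was still called without replicate 2. For tra-1 (Y47D3A.6b) the gap was 0.816 of the range: replicate 3 with the mutant in Cy3 had 0.05, against 0.24 to 0.28 on the others. For the median of the germ line list the gap was 0.660 of the range: replicate 3 with the mutant in Cy5 had -1.09, against -0.91 to -0.82 on the others. No cause was tested.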

How the results depend on the processing

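Over the 14 probes and 16 alternatives, 204 of 224 log2 ratios kept direction and call, 17 gained a call and 3 changed sign, all 3 for tra-1 (Y47D3A.6a): -0.071 with the scanner's processed signals, -0.13 with the deposited ratios and -0.14 with median centring. The called probes numbered 5 with an offset of 10, with processed signals and with deposited ratios, and 13 with no fold threshold. The all-probe count was 4306 with processed signals, 4518 with deposited ratios and 13592 with no fold threshold, and the split of higher to lower calls, 1492 to 1153 here, was 2197 to 2321 with deposited ratios and 1382 to 1498 with median centring. Sperm calls numbered 0 with normexp fitted on all spots and with no background correction, 2 with an offset of 10 and with deposited ratios, 4 with processed signals, 14 with no fold threshold and 0 to 2 with a replicate left out. Neuron calls numbered 4 with median centring and 20 with no fold threshold, which also gave 21 germ line calls and 46 among the other sex determination genes. The all-probe median was 0.0071 with processed signals, 0.0099 with median centring and 0.0039 with the mutant in Cy5 only, and the muscle median was -0.043 with deposited ratios and -0.065 with median centring. The difference between the nos-3 probes (Y53C12B.3a minus Y53C12B.3b), -0.16 here, was 0.0082 with an offset of 10, 0.27 with processed signals and 0.24 with deposited ratios. The causes were not tested, except that no fold threshold admits smaller changes by construction. With the 6 arrays fitted singly, a dye coefficient and the replicate block, 2645 probes and 3 of the 14 were called, and no call of the 14 changed. Dim probes are limited by the offset: an offset of 10 moved the ratios of fog-1, fem-1 (A_12_P101704), nos-3, tra-2 (C15F1.3b) and tra-1 (Y47D3A.6b) away from 0.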

Other observations

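The male somatic targets of the cascade, mostly genes of the DM-domain family to which mab-3 belongs, showed small ratios in both directions. Of 9 tested probes, 4 were higher and 2 lower in the mutant at an adjusted p under 0.05 (limma), and none was called at 2-fold. The median log2 ratio was -0.02. Of the 4 higher probes, that of dmd-8 passed the filter only through the mutant, in which it was well above background on 6 of 6 arrays, against 2 of 6 in wild type, so its ratio is not given. lin-39, a Hox gene, had 0.51 ± 0.0193, while egl-1, which TRA-1 represses in neurons specific to hermaphrodites, had -0.35 ± 0.0421 (SD, n = 3 each). The probes of mab-3, a direct TRA-1 target, had -0.06 ± 0.0390 and 0.13 ± 0.130.

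Among genes of the somatic gonad and of yolk, the vitellogenins, which are made in the hermaphrodite intestine under the control of the same cascade, were lower in the mutant: all 5 tested vit probes were called lower, with vit-1 at -4.15 ± 0.126, vit-5 at -3.44 ± 0.0933 and vit-4 at -3.17 ± 0.146 (SD, n = 3 each). Of the other 6 tested probes none was called, and they went in both directions. At an adjusted p under 0.05 (limma), the 2 probes of ceh-18, a gonadal sheath gene, were higher (0.49 and 0.74). That of inx-9 was lower (-0.46), and the other 3 did not pass.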
